A study of Caenorhabditis elegans with 18 samples.

Results

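The TRF by H2O2 interaction measures, for each gene, how far the response of worms to TRF differed between worms that had met H2O2 and worms that had not. All 18 arrays of the series entered it, 1 per sample, and all 22548 probe sets that are not Affymetrix controls were tested, out of 22625 in the table. The animals were wild-type N2 Caenorhabditis elegans, a nematode, kept at 20 °C with E. coli OP50 as food. The TRF+H2O2+TRF worms (n = 4) received TRF before and after an H2O2 exposure, from hatching to day 3 of adulthood. The H2O2 worms (n = 5) met 0.3 mM H2O2 as L4 larvae, for 2 h. The TRF worms (n = 4) received TRF over the whole life cycle, and the control worms (n = 5) received neither agent. The labels give no TRF dose, do not repeat the H2O2 dose for the TRF+H2O2+TRF worms, and describe the TRF period differently in the TRF groups. A difference in TRF period and a difference in H2O2 exposure therefore cannot be told apart in the interaction. Whether replicates were separate cultures is not stated in the labels, and the p-values cover only the spread among these arrays, which may be technical.

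TRF, the tocotrienol-rich fraction, is a preparation of vitamin E compounds, and vitamin E is a lipid-soluble antioxidant that stops chains of lipid peroxidation in membranes. H2O2 oxidises protein thiols and, with iron, gives more reactive radicals. In C. elegans the transcription factors SKN-1 and DAF-16 switch on detoxification enzymes, superoxide dismutases and catalases under oxidative stress, and heat shock proteins bind damaged proteins. With both agents in a 2 by 2 design, an antioxidant could act on a gene in the same way with and without the oxidant, or only with it.

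The interaction was computed on log2(MAS5 signal + 1) as the TRF effect with H2O2 (TRF+H2O2+TRF minus H2O2) minus the TRF effect without H2O2 (TRF minus control). A value above 0 means that TRF went with more signal, or a smaller loss of it, when worms had met H2O2. The arrays resembled each other, with a mean correlation with the other 17 between 0.940 and 0.954. The adult yolk gene vit-2 had signals from 10267 to 13960 and the adult cuticle collagen col-19 from 916 to 3589 over the 18 arrays. The neuronal marker rgef-1 had 1.03 to 30.2 and the sperm marker gsp-3 had 3.55 to 97.1, so these were near the bottom of the scale. Other neuronal markers were brighter, with unc-119 at 338 to 686, snb-1 at 3674 to 6554 and flp-1 at 514 to 1104. The sperm list mean ran from 5.43 to 6.67 in TRF+H2O2+TRF, 5.35 to 6.80 in H2O2, 5.16 to 7.08 in TRF and 5.32 to 6.93 in control, on the log2 scale. The ubiquitin 3′ to 5′ ratio, a sign of RNA quality, ran from 8.50 to 14.9, 8.45 to 14.8, 8.02 to 14.8 and 9.61 to 15.5 in the same order of groups. The GAPDH 3′ to 5′ ratio was far lower, at 0.811 to 1.00, 0.746 to 0.876, 0.812 to 0.932 and 0.788 to 0.930 in that order. With the sperm list mean as a covariate the interaction again had 0 calls, and the part of RNA quality was not tested.

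No gene passed the threshold for a TRF response that differed with H2O2. The interaction was called for 0 of 22548 probe sets (0%) with limma at an adjusted p under 0.05, and the smallest adjusted p was 1.0. At an unadjusted p under 0.05 there were 525 probe sets (2.33%), of which 149 had an interaction above 0 (0.661%) and 376 below 0 (1.67%). Of these 525, 402 lay below the 40th percentile of mean signal, a geometric mean of 47, where 312 were below 0. Among the 13529 probe sets at or above that percentile 123 (0.909%) passed the unadjusted threshold. Among the 4510 brightest, at or above the 80th percentile, 25 (0.554%) did, 17 above 0 and 8 below. Most of the values below 0 thus came from dim probe sets. Among the probe sets at an unadjusted p under 0.05 the share above 0 was 28.4% for the deposited signals, 39.5% after median centring of the arrays, 47.6% after quantile normalization and 67.2% with the probe sets at or above the 60th percentile alone.

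Each TRF effect taken alone also gave few calls. TRF+H2O2+TRF against H2O2 had 0 called probe sets (0%, smallest adjusted p 0.999 with limma) and 834 (3.7%) at an unadjusted p under 0.05, 351 higher (1.56%) and 483 lower (2.14%). TRF against control had 1 called probe set (0.00443%), of F42A10.7, and 698 (3.1%) at an unadjusted p under 0.05, 441 higher (1.96%) and 257 lower (1.14%). Replicate numbers may pair the arrays, since same-numbered arrays of TRF+H2O2+TRF and TRF, and of H2O2 and control, deviated together among probe sets at or above the 40th percentile. With these 9 pairs as a replicate block the interaction again had 0 calls, with 1200 probe sets (5.32%) at an unadjusted p under 0.05. With the 5 replicate numbers as a replicate block, 1713 probe sets passed the unadjusted threshold in TRF+H2O2+TRF against H2O2 and 1549 in TRF against control. Neither TRF effect had a call in that fit.

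In the fit without a replicate block, the arrays set a limit on the size of interaction that could be seen. The 95% interval of the interaction reached a median of 0.94 on either side of the estimate over all probe sets, and 0.64 among probe sets at or above the 40th percentile. It lay inside a range of 1 on the log2 scale on either side of 0, a 2-fold change of the response, for 9260 of 22548 probe sets (41.1%) and for 9216 of the 13529 brighter ones (68.1%). For most bright probe sets a 2-fold interaction therefore lay outside the interval, whereas below the 40th percentile the median half-width was 1.83, too wide for that. Intervals with the 9 pairs as a replicate block are not given here and may differ. That fit had 1200 probe sets (5.32%) at an unadjusted p under 0.05, against 525 (2.33%) without the block.

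The gene with the lowest p at or above the 40th percentile was fnip-2, which belongs to the family of folliculin-interacting proteins. Its signal was 387, 277, 385 and 366 in TRF+H2O2+TRF, against 251, 320, 277, 156 and 237 in H2O2. It was 169, 250, 212 and 182 in TRF, against 272, 336, 344, 282 and 300 in control. All 4 TRF arrays lay below all 5 control arrays, whereas the TRF+H2O2+TRF and H2O2 arrays overlapped with the first group mostly higher. The interaction was 1.14 ± 0.272 (SE, 95% interval 0.57 to 1.71), from 0.54 with H2O2 and -0.60 without, and it ran from 0.98 to 1.25 when single arrays were left out. Like every gene described here it did not pass the adjusted threshold for the interaction, and it was picked for its small p.

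F42A10.7 was the gene called in TRF against control, and it was to be named whatever its interaction, but with earlier results of these data known. Its signal was 1427, 916, 1114 and 243 in TRF+H2O2+TRF, against 363, 599, 622, 418 and 632 in H2O2. It was 1853, 1588, 1471 and 1100 in TRF, against 304, 345, 309, 316 and 176 in control. Without H2O2 the groups were far apart, while with H2O2 replicate 4 of TRF+H2O2+TRF lay below all 5 H2O2 arrays and the other 3 above them. The gene rose 5.21-fold in TRF over control (adjusted p = 0.0479, limma), and its TRF effect with H2O2 was 0.59 ± 0.361 (SE) on the log2 scale. The interaction was -1.79 ± 0.51 (SE, 95% interval -2.86 to -0.73), and -1.24 without replicate 4 of TRF+H2O2+TRF. It subtracts the TRF effect without H2O2, in which this gene stood out, so a value below 0 follows in part from the choice. The call in TRF against control was lost when any 1 of 16 of the 18 arrays was left out, as listed with the processing. In those 16 settings the smallest adjusted p was 0.0536 to 0.413 (limma). Without TRF+H2O2+TRF replicate 1 or replicate 4 there was 1 called probe set, with an adjusted p of 0.0231 and 4.1e-05 (limma).

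**Figure D1:**
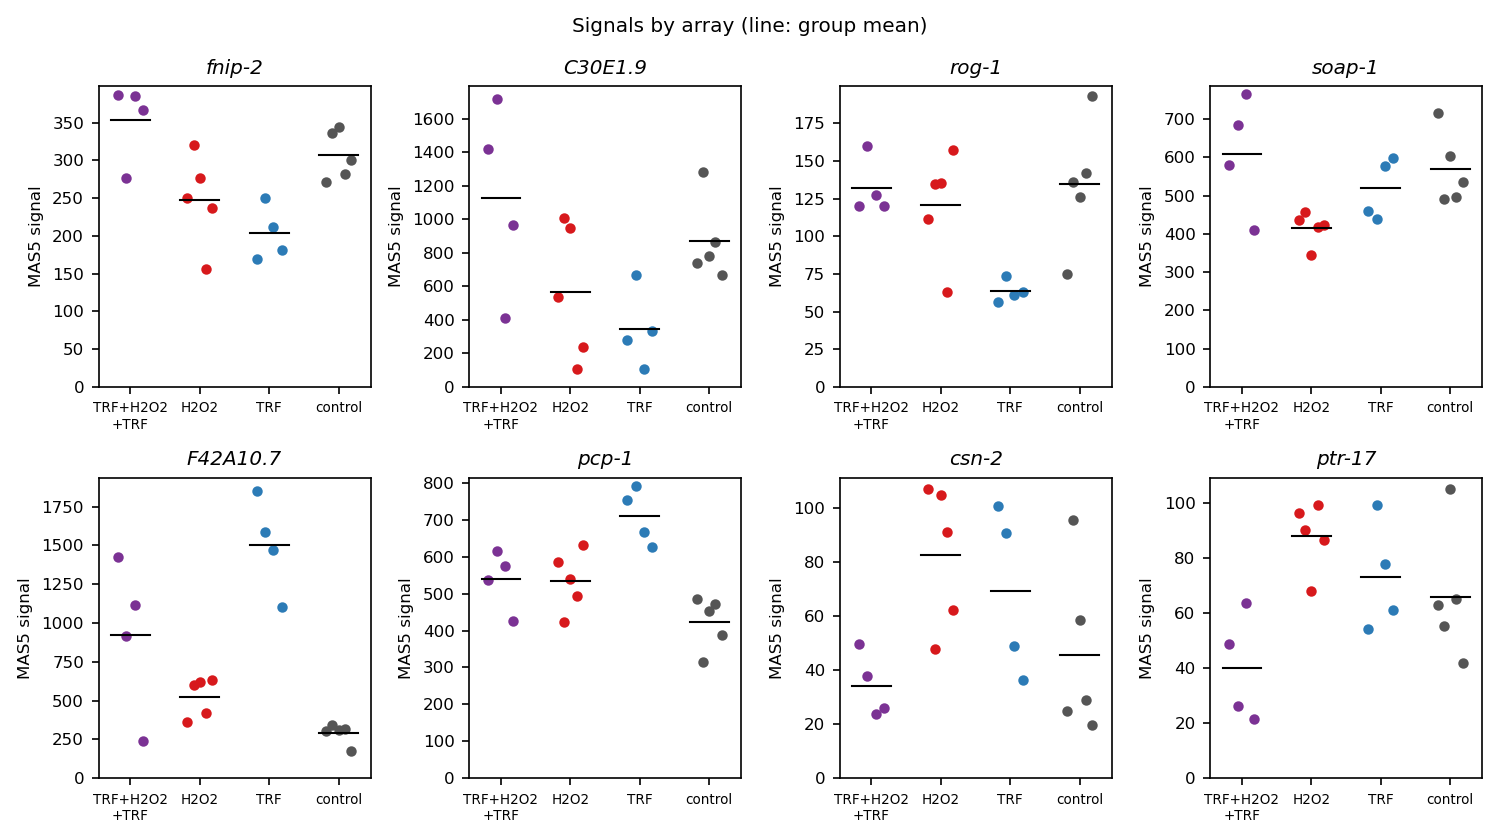
MAS5 signal (y axis, linear, from 0) on each array of the 4 groups for the 4 leading genes with interaction above 0 (top row) and below 0 (bottom row); points are arrays and lines are group means. The fnip-2 signal was 169 to 250 in TRF and 272 to 344 in control, and the F42A10.7 signal was 1100 to 1853 in TRF and 176 to 345 in control.

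The 15 genes with the smallest p on each side, at or above the 40th percentile, were sorted by the signs of their TRF effects. All 15 above 0 and 12 of the 15 below 0 had TRF effects of opposite sign with and without H2O2. The other 3, F42A10.7, pcp-1 and thn-1, had TRF effects of the same sign that were smaller with H2O2. This division follows in part from choosing genes by the interaction, and none of the 30 was called, against 0% of all probe sets.

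On the side above 0, C30E1.9 had 1420, 1717, 411 and 966 in TRF+H2O2+TRF, against 538, 1012, 950, 105 and 238 in H2O2, and 277, 671, 108 and 331 in TRF, against 742, 1283, 783, 867 and 669 in control. Its groups spread several-fold within themselves, and only TRF against control came close to separation. The interaction was 2.80 ± 0.818 (SE, 95% interval 1.09 to 4.51). In rog-1 the signal was 120, 160, 127 and 120 in TRF+H2O2+TRF, against 111.7, 135, 135, 63.3 and 158 in H2O2, and 56.4, 73.6, 60.9 and 63.0 in TRF, against 75.2, 136, 126, 142 and 193 in control. All 4 TRF arrays were below all 5 control arrays, and the H2O2-exposed groups overlapped. The interaction of rog-1 was 1.2. The SNARE gene ykt-6, which acts in membrane fusion, had 1217, 1196, 1183 and 1144 in TRF+H2O2+TRF, against 1220, 1087, 1095, 1039 and 1043 in H2O2, and 1038, 1050, 1007 and 1104 in TRF, against 1238, 1298, 1159, 1222 and 1170 in control. Its groups differed by little but varied by little too, and the interaction was 0.33 ± 0.127 (SE). The kinetochore gene kbp-4 had an interaction of 0.56, the autophagy gene epg-6, of the WIPI family, 0.41, and mlcd-1, which encodes malonyl-CoA decarboxylase, 0.35. For soap-1 (0.65) a further probe set gave the opposite sign. The remaining ones above 0 were C04H5.1 (1.96), sdz-26 (1.91), Y51B9A.8 (1.23), Y17G7B.8 (0.64), ZC328.3 (0.62), tasp-1 (0.48) and sig-7 (0.41).

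On the side below 0, pcp-1, which resembles prolyl carboxypeptidases, had 535, 615, 575 and 427 in TRF+H2O2+TRF, against 585, 424, 538, 492 and 633 in H2O2, and 753, 790, 667 and 626 in TRF, against 486, 315, 452, 472 and 389 in control. All 4 TRF arrays were above all 5 control arrays, and the H2O2-exposed groups lay over each other. The interaction was -0.75 (95% interval -1.21 to -0.28), from 0.01 with H2O2 and 0.76 without. The thaumatin family gene thn-1 had 223, 166, 228 and 138 in TRF+H2O2+TRF, against 106, 163, 191, 124 and 164 in H2O2, and 216, 353, 413 and 227 in TRF, against 98.6, 134, 70.3, 123 and 163 in control. Its TRF effects had the same sign, 0.34 with H2O2 and 1.35 without, and the interaction was -1.02. The patched-related gene ptr-17 had 48.7, 26.3, 63.6 and 21.7 in TRF+H2O2+TRF, against 96.6, 90.1, 68.1, 99.2 and 86.7 in H2O2, and 54.2, 99.3, 77.9 and 61.4 in TRF, against 62.9, 55.5, 105, 65.1 and 41.9 in control. Here the H2O2-exposed pair was the separated one, with TRF+H2O2+TRF below H2O2, and the interaction was -1.41. The saposin-like gene spp-14 had the same form at high signal, with 1622, 1564, 1586 and 1526 in TRF+H2O2+TRF, against 2300, 1830, 2258, 2159 and 1795 in H2O2, and 1980, 1745, 1493 and 1841 in TRF, against 1788, 1823, 1644, 1401 and 1861 in control. Its interaction was -0.44 ± 0.161 (SE). The COP9 signalosome gene csn-2 had -1.96, drd-10 -1.94, Y53G8AL.1 -1.51, M151.4 -1.39, the alpha-tubulin gene tba-9 -1.09 and F36A2.10 -1.05. The others were C05D12.2 (-0.85), T24C12.3 (-0.72), T07C4.3 (-0.48) and the cuticle collagen col-119 (-0.40).

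A stricter reading of opposite TRF effects asks for arrays that do not overlap on either side. Of 22548 probe sets, 3 (0.0133%) had TRF+H2O2+TRF below H2O2 and TRF above control with no overlap, and 0 (0%) had the reverse. These were chosen after their values were seen. The mitochondrial ribosomal protein gene mrpl-44 had 90.5, 124, 121 and 128 in TRF+H2O2+TRF, against 157, 134, 178, 135 and 152 in H2O2, and 131, 150, 155 and 143 in TRF, against 94.5, 105, 115, 76.1 and 116 in control. Its interaction was -0.91 ± 0.268 (SE), with an adjusted p of 1.0 in limma. The other 2 were W08F4.10, with signals of 0.907 to 34.1, and a probe set with no gene name here. Groups apart in the same direction on both sides were found for hgap-2, above in both (1 probe set, 0.00443%), and for F14F8.9 and F20A1.2, below in both (2 probe sets, 0.00887%). In hgap-2 the signal was 686, 658, 781 and 712 in TRF+H2O2+TRF, against 591, 484, 588, 522 and 644 in H2O2, and 861, 722, 857 and 691 in TRF, against 554, 458, 349, 546 and 651 in control. Its interaction was -0.31 (95% interval -0.77 to 0.15). How many probe sets would separate in these ways by chance was not computed, so the counts give no support to either pattern.

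**Figure D2:**
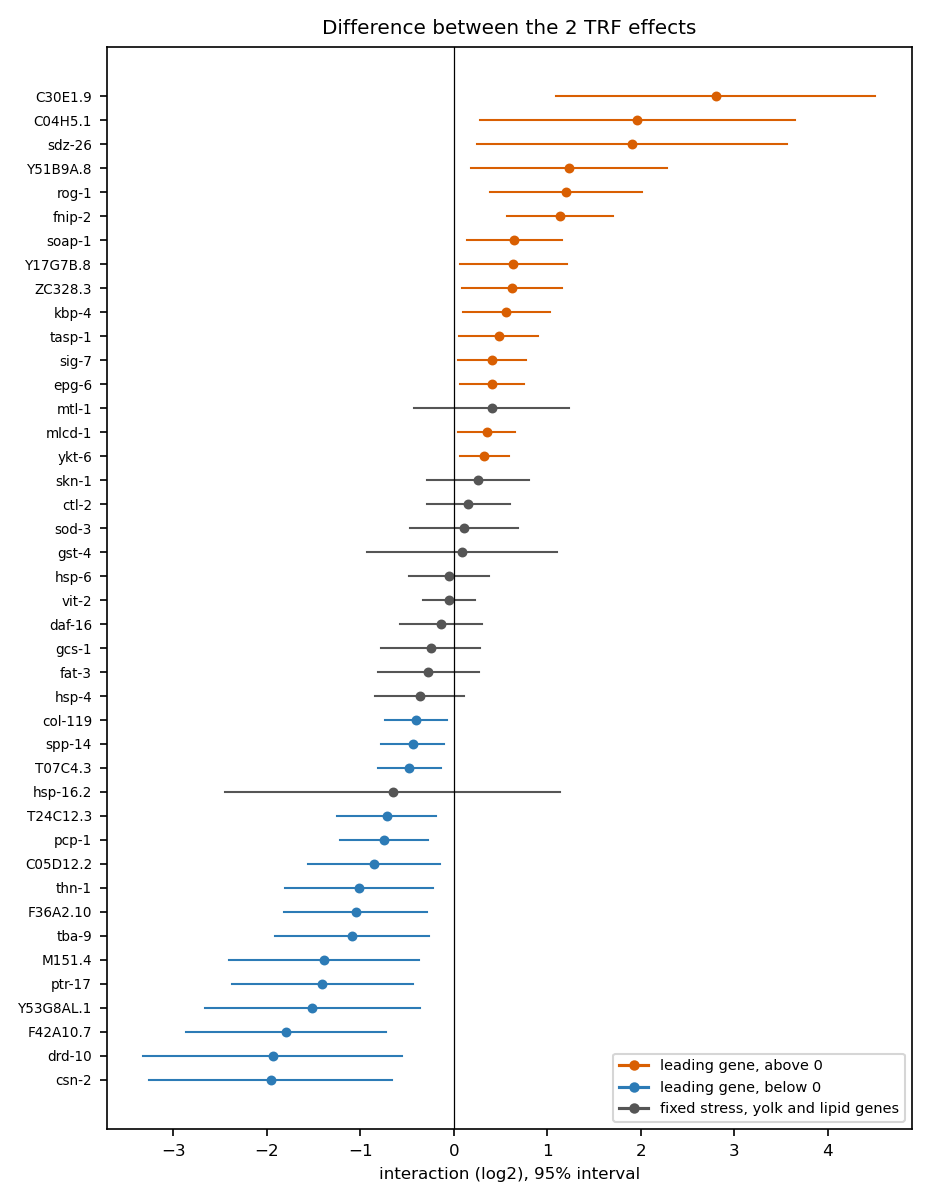
Interaction on the log2 scale with its 95% interval (x axis) for the 30 leading genes and the fixed stress, yolk and lipid genes (y axis); orange marks leading genes above 0, blue those below 0 and grey the fixed genes. The grey intervals include 0, and that of fnip-2 runs from 0.57 to 1.71.

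The stress genes that were named whatever their result had interactions close to 0 or intervals too wide to read. The superoxide dismutase gene sod-3, a target of DAF-16, had 198, 306, 228 and 330 in TRF+H2O2+TRF, against 285, 242, 260, 283 and 287 in H2O2, and 210, 200, 175 and 270 in TRF, against 204, 265, 183, 332 and 232 in control. The groups overlapped throughout, and the interaction was 0.11 (95% interval -0.47 to 0.69). The glutathione S-transferase gene gst-4, a common reporter of SKN-1, had 735, 1259, 1398 and 1105 in TRF+H2O2+TRF, against 873, 1745, 563, 1099 and 1393 in H2O2, and 824, 1362, 1867 and 1214 in TRF, against 1043, 1729, 588, 1643 and 2084 in control. Within each group it varied more than between groups, and the interaction was 0.09 (95% interval -0.93 to 1.1). The small heat shock gene hsp-16.2 had 1204, 1785, 2811 and 912 in TRF+H2O2+TRF, against 1804, 1595, 1877, 5556 and 376 in H2O2, and 1428, 2021, 2936 and 1001 in TRF, against 1383, 2410, 2165, 831 and 336 in control. Its interaction was -0.65 (95% interval -2.44 to 1.14), which leaves a 4-fold difference inside the interval. The genes daf-16 (-0.14) and skn-1 (0.26), for the transcription factors themselves, gcs-1 (-0.25), for an enzyme of glutathione synthesis, ctl-2 (0.16), for a catalase, mtl-1 (0.41), for a metallothionein, hsp-4 (-0.36), for the endoplasmic reticulum chaperone BiP, and hsp-6 (-0.05), for a mitochondrial chaperone, did not pass the threshold. For skn-1, the sign was opposite in both of its other probe sets. The yolk protein gene vit-2 had an interaction of -0.05 (95% interval -0.33 to 0.23), the narrowest of the set.

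The TRF effects with and without H2O2 share no arrays and can be set beside each other. Across the 13529 probe sets at or above the 40th percentile Pearson's r between them was 0.307, across genes that are not independent replicates, and 62.6% had the same sign, against 57.8% of all 22548 probe sets, where r was 0.0857. Of the 172 bright probe sets higher in TRF than in control at an unadjusted p under 0.05, 142 (82.6%) were also higher in TRF+H2O2+TRF than in H2O2, against 54.7% of all bright ones. Their median TRF effect was 0.25 with H2O2 and 0.58 without, the side on which they were chosen. Of 136 lower ones, 100 (73.5%) kept the sign, against 45.3%. Starting from the H2O2-exposed pair, 174 of 205 higher probe sets (84.9%, against 57.6%) and 107 of 156 lower ones (68.6%, against 42.4%) kept the sign without H2O2. The median of these 205 was 0.50 with H2O2 and 0.19 without, and that of the 156 was -0.31 with and -0.03 without. The larger median thus lay on the side used for choosing, so these medians do not show that H2O2 weakened the TRF effect. Leaving out 1 array moved the first share between 71.7% (without TRF+H2O2+TRF replicate 1) and 88.7%, and the last between 47.6% (without control replicate 2) and 83.2%. Same-numbered arrays of TRF+H2O2+TRF and TRF deviated together (r of 0.350 to 0.686), as did those of H2O2 and control (0.280 to 0.681), so the TRF effects are not independent, and the part of this in the shared signs was not tested.

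Of the 13529 bright probe sets, 28 passed the unadjusted threshold in both TRF effects with the same sign, 21 higher and 7 lower. Over all 22548 probe sets, 31 higher and 11 lower ones did. How many would pass in both by chance was not computed, so these counts are not read as many or few. The number of bright ones was 10 without TRF+H2O2+TRF replicate 1, 61 without H2O2 replicate 1 and 216 with the 5 replicate numbers as a replicate block. The genes named from the 28 were chosen after their values were seen, and none was called in both. The list of fatty acid breakdown and lipid transport had a median TRF effect of 0.03 with and 0.09 without H2O2, with 19 and 21 of its 32 members above 0, and that of fatty acid synthesis and desaturation had -0.07 with and -0.07 without, with 7 and 8 of its 23 members above 0. In acs-2, an acyl-CoA synthetase of fatty acid oxidation, the signal was 1902, 1030, 822 and 623 in TRF+H2O2+TRF, against 608, 688, 410, 719 and 694 in H2O2, and 933, 1310, 1060 and 682 in TRF, against 605, 723, 619, 488 and 546 in control. Replicate 1 of TRF+H2O2+TRF stood high, and the TRF effects were 0.71 with and 0.71 without H2O2. In cpt-4, a carnitine palmitoyltransferase, the signal was 230, 245, 185 and 187 in TRF+H2O2+TRF, against 152, 98.4, 91.8, 177 and 121 in H2O2, and 247, 195, 191 and 241 in TRF, against 203, 196, 95.8, 103.5 and 99.9 in control. The H2O2-exposed groups of cpt-4 did not overlap, and its interaction was 0.04 (95% interval -0.73 to 0.80). The desaturase fat-3, which makes polyunsaturated fatty acids, had TRF effects of 0.49 with and 0.76 without H2O2 and an interaction of -0.27 (95% interval -0.81 to 0.26). The ferritin gene ftn-1, for iron storage, had 0.66 with and 0.90 without, the aquaporin gene aqp-1 1.05 with and 0.88 without, and the alcohol dehydrogenase gene adh-1 0.61 with and 0.65 without. The detoxification genes ugt-25 (0.47 with, 0.60 without), ugt-51 (0.82 with, 0.84 without) and cyp-34A2 (0.64 with, 0.82 without) were also in this set. Replicate 1 of TRF+H2O2+TRF was the highest of its group in fat-3, ftn-1, aqp-1, adh-1, ugt-51 and cyp-34A2. In aqp-1 it had 2753 with the others at 1130 to 1443, and the H2O2 arrays reached 1240. The TRF+H2O2+TRF and H2O2 arrays overlapped in each of these genes, but not in ugt-25. The lower ones included F01D5.2 (-0.96 with, -0.74 without) and the splicing factor gene rsp-6 (-0.29 with, -0.24 without).

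**Figure D3:**
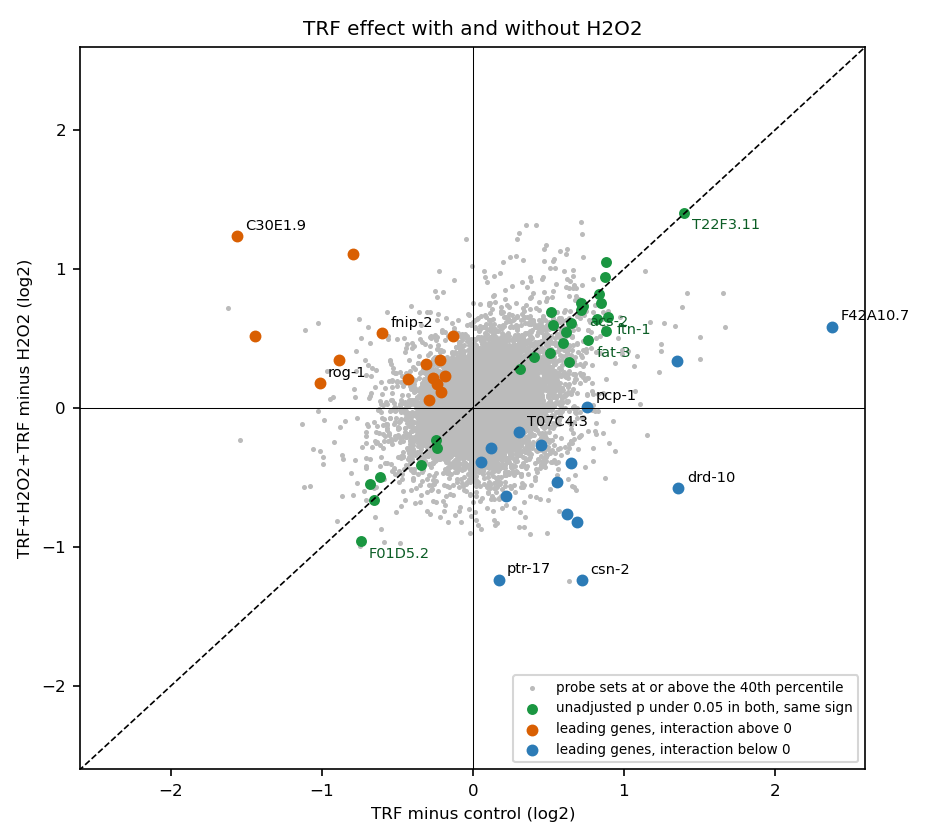
TRF effect with H2O2 (y axis, log2) against TRF effect without H2O2 (x axis, log2) for the 13529 probe sets at or above the 40th percentile; orange and blue points are leading genes of the interaction, green points the 28 probe sets at an unadjusted p under 0.05 in both with the same sign, and the dashed line marks equal effects. The 15 orange points lie above 0 on the y axis and below 0 on the x axis, and acs-2 lies at 0.71 on both axes.

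The 41 gene lists had 0 members called in either direction, as had all probe sets (0%), and are described by counts and medians beside those of all probe sets, of which 44.3% lay above 0 with a median interaction of -0.04. In whole worms, fewer cells of a type and less RNA per cell cannot be told apart. Antioxidant enzymes had 18 of 29 measured members above 0 and a median of 0.06 (0.15 after median centring), with the thioredoxin reductase gene trxr-2 at 0.75 and the glutathione peroxidase gene gpx-2 at -0.72. The genes of SKN-1 and phase II detoxification had 9 of 16 above 0 and a median of 0.01, and glutathione S-transferases had 27 of 45 above 0 and a median of 0.08, which was 0.17 after median centring and -0.02 without H2O2 replicate 5. In gst-32 the interaction was 3.82, the highest of that list, at signals of 1.13 to 34.6, near the bottom of the scale. The DAF-16 downstream dod genes had 5 of 9 above 0 and a median of 0.11, which was 0.20 after median centring and -0.09 without TRF replicate 3. Median centring raised the interaction of every probe set by the same amount, so the median of all probe sets rose as much as those of the lists. Small heat shock proteins had 6 above and 6 below 0, and the genes of endoplasmic reticulum stress had 12 of 19 below 0 with a median of -0.04.

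Cuticle collagens, which form the exoskeleton, had the lowest list median, at -0.21, with 108 of 146 members below 0. The unadjusted threshold was passed by 5 members (3.42%), all below 0, beside 1.67% of all probe sets. Of the 146 members, 90 lay at or above the 40th percentile. Below that percentile 312 of 9019 probe sets passed with a value below 0, so 1.67% is not a like share for the dim members. Their median TRF effect was -0.21 with H2O2 and 0.08 without. The interaction median stayed between -0.34 and -0.13 when single arrays were left out, and was -0.15 after quantile normalization. It was -0.12 after median centring of the arrays, which put the median of all probe sets at 0.05. Their list mean was 6.93 to 7.11 in TRF+H2O2+TRF, against 6.86 to 7.64 in H2O2, and 6.89 to 7.27 in TRF, against 6.56 to 7.61 in control, so the groups overlapped. Cytosolic ribosomal proteins had 76 of 79 members below 0 and a median of -0.17, while the median was -0.00219 after quantile normalization and -0.08 after median centring. Their list mean was 13.6 ± 0.049 in TRF+H2O2+TRF (SD, n = 4), against 13.8 ± 0.145 in H2O2 (SD, n = 5), and 13.6 ± 0.052 in TRF (SD, n = 4), against 13.6 ± 0.153 in control (SD, n = 5). The TRF+H2O2+TRF arrays lay below the H2O2 arrays, and the TRF arrays lay among the control arrays. All 5 vitellogenins, the yolk proteins, were below 0, with a median of -0.17 that was -0.00161 after quantile normalization and -0.08 after median centring, and members such as vit-6 at -0.26 and vit-5 at -0.20. Oocyte and eggshell genes had 23 of 28 members below 0 and a median of -0.14, which was -0.04 after quantile normalization, -0.05 after median centring and -0.06 without TRF replicate 3, with the eggshell gene cbd-1 at -0.31, for which a further probe set had the opposite sign.

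Body wall muscle genes had 32 of 39 members below 0 and a median of -0.13, with the integrin gene pat-3 at -0.30 and the muscle transcription factor gene hlh-1 at -0.50. That median was 0.03 without replicate 3 of TRF+H2O2+TRF and -0.03 after median centring, but still -0.13 after quantile normalization. C-type lectins, many of which respond to pathogens, had 130 of 220 members below 0 and a median of -0.17, but 0.02 among the 66 members at or above the 40th percentile, -0.03 after quantile normalization and -0.07 after median centring. In clec-158 the signal was 2.32, 3.76, 5.47 and 2.15 in TRF+H2O2+TRF, against 2.98, 7.07, 3.62, 5.47 and 6.89 in H2O2, and 32.8, 6.49, 31.1 and 18.2 in TRF, against 1.64, 2.53, 5.17, 1.28 and 2.94 in control. All TRF arrays lay above the control arrays, at signals near the bottom of the scale, and the interaction was -3.01. The sperm list had a median of -0.04, which ran from -0.56 without TRF replicate 4 to 0.35 without TRF replicate 2. Genes of the respiratory chain and ATP synthase (32 of 64 above 0, median 0.00) and proteasome subunits (16 of 33 above 0, median -0.02) lay close to 0, with narrow intervals: 62 of 64 and 31 of 33 lay inside a range of 1 on either side of 0. The remaining lists had medians between those of the cuticle collagens and the dod genes.

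**Figure D4:**
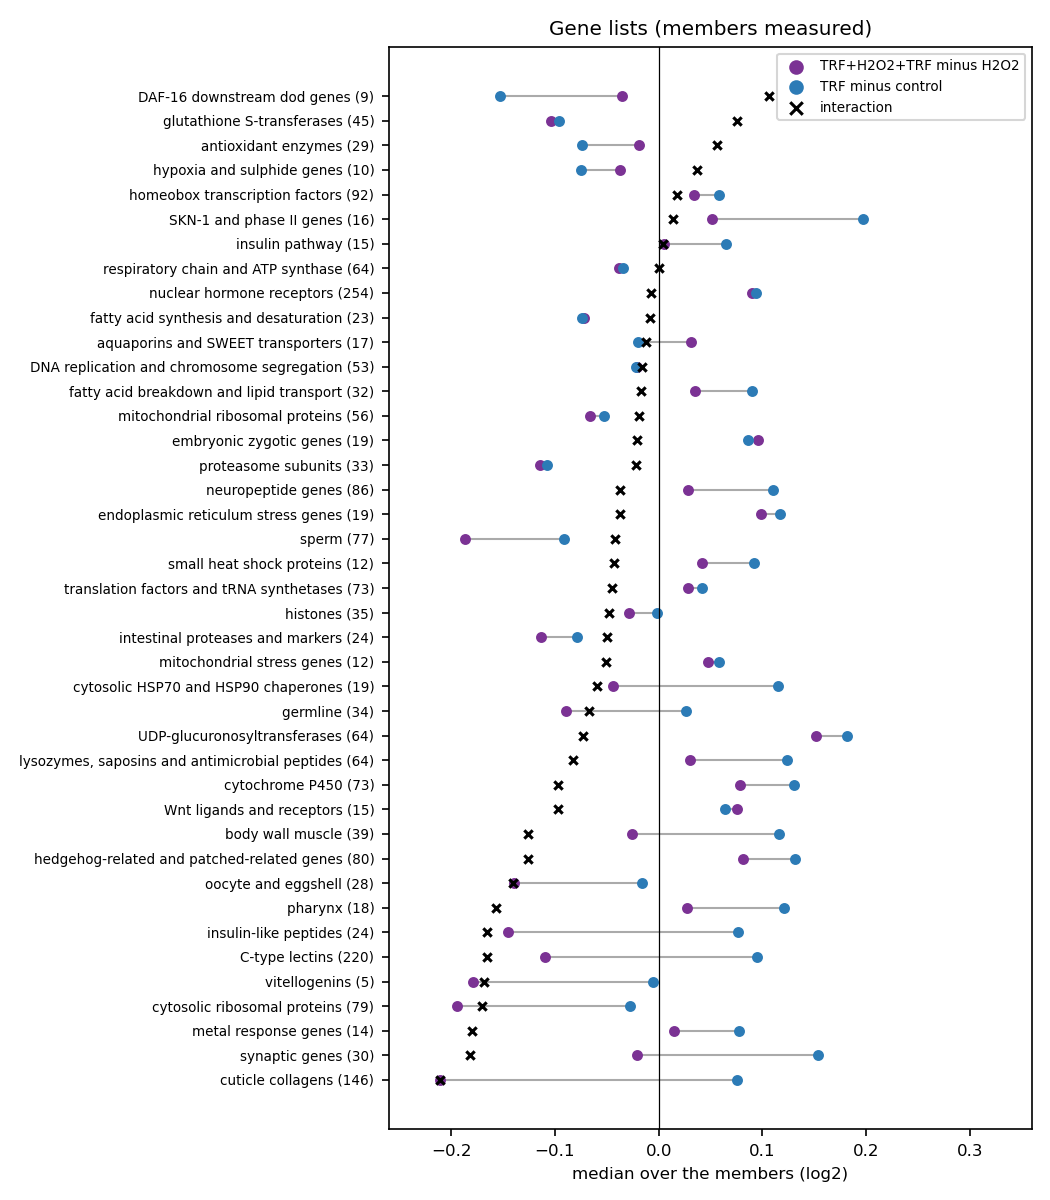
Median over the measured members of each of the 41 gene lists (y axis, number of members in brackets) for the TRF effect with H2O2 (purple), the TRF effect without H2O2 (blue) and the interaction (cross), on the log2 scale (x axis). The interaction medians run from -0.21 for cuticle collagens to 0.11 for the dod genes.

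**Figure D5:**
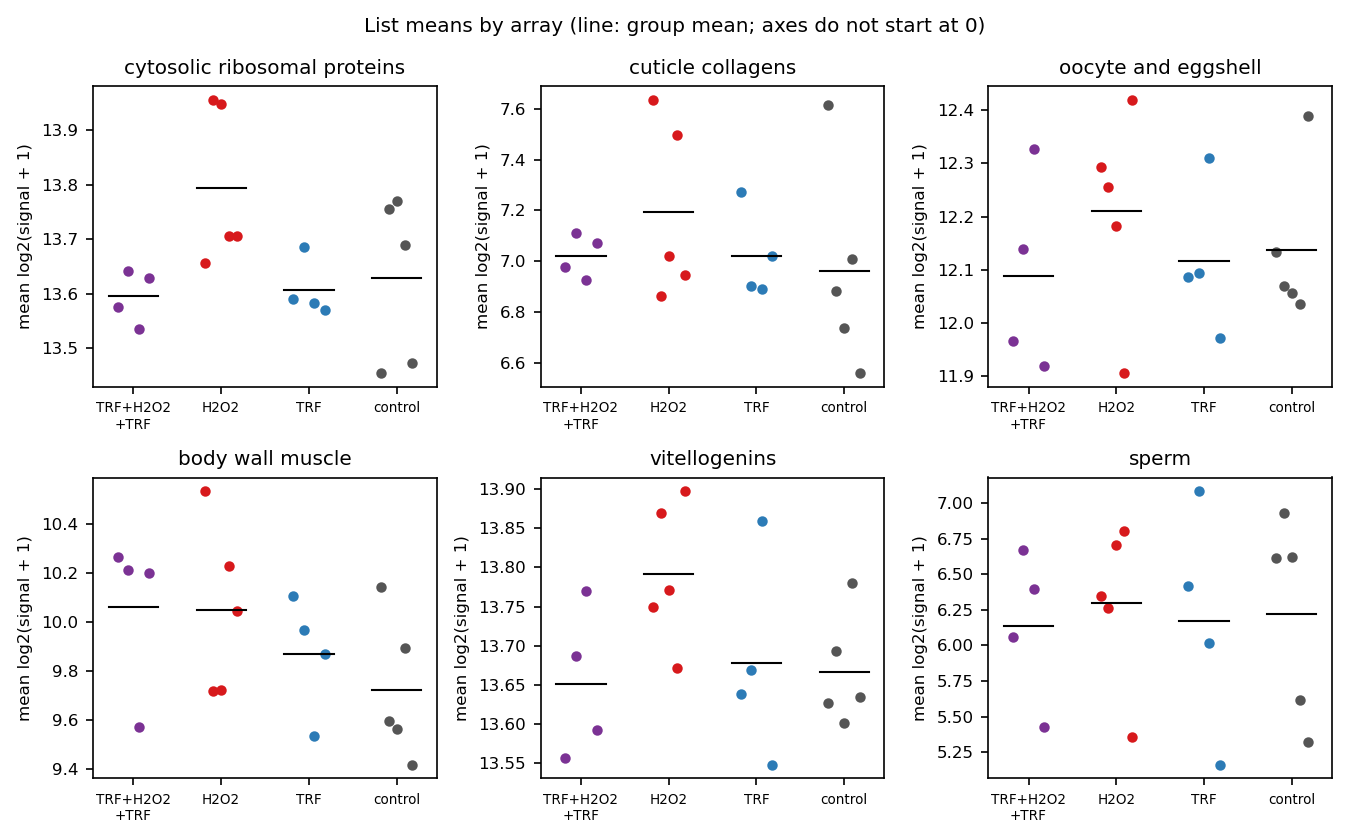
Mean of log2(signal + 1) over 6 gene lists (y axes, which do not start at 0) on each array of the 4 groups; points are arrays and lines are group means. The ribosomal list has TRF+H2O2+TRF arrays below H2O2 arrays, and the groups of the sperm list overlap, with 5.16 to 7.08 in TRF.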

How the data were processed

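RNA of 18 samples was hybridised to Affymetrix arrays, 1 per sample. The deposited values are intensity values, linear MAS5 signals, and MAS5 and Affymetrix Expression Console are the tools listed in the submitters' processing notes. No genome build is given in the sources used here. The trimmed mean signal was 500.1 on each array, so the arrays had been scaled alike. Groups came from the sample titles. A group-means model was fitted to log2(signal + 1), with no further normalization and a pseudocount of 1, over all 18 arrays with limma 3.58.1 in R 4.3.3 (lmFit, eBayes with a variance trend, two-sided, Benjamini-Hochberg over 22548 probe sets, 77 controls left out). This leaves 14 residual degrees of freedom. The number of arrays limits the precision, and the p-values come from the same fit for all contrasts. A gene symbol was given to 20766 probe sets, 887 had several and 895 none here. Each gene stands for its brightest probe set.

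Named genes were the 15 with the smallest p in each direction at or above the 40th percentile, the 2 members of each list with the smallest p, and 13 genes whatever their result. Members and lists were chosen with earlier results of these data known. The numbers 1 to 5 of the titles were checked for pairing by correlating residuals; they are used as a replicate block in alternatives. Over all probe sets the lowest correlation of the paired groups was 0.0894 and 0.0657, and at or above the 40th percentile 0.350 and 0.280. Alternatives covered the filter, normalization, pseudocount, variance model, array weights, replicate blocks, a sperm covariate, leaving out the later arrays or each array in turn, and the methods' t-test. The later arrays are replicate 5 of control and replicate 5 of H2O2. The TRF groups have no replicate 5, so both TRF effects compare groups with and without such an array. The sample titles give no date or batch for these arrays. The method was tested on simulated data with noise drawn independently for each array, so the test does not cover arrays that deviate together.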

Additional observations from a re-analysis of the deposited data

Results flagged for a closer look

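Among 42 leading and fixed genes, the values of 10 of 168 groups held 1 array whose distance from its nearest neighbour, on the log2 scale, was large against the range of the group. Chance marks about 1 in 20 groups in this way. For fnip-2, TRF+H2O2+TRF replicate 2 had a signal of 277 with the others at 366 to 387, and for Y53G8AL.1 replicate 1 of the same group had 21.2 with the others at 52.6 to 59.1. For M151.4, H2O2 replicate 3 had 47.6 with the others at 73.2 to 82.7, and for col-119 H2O2 replicate 5 had 17707 with the others at 20544 to 21553. For ctl-2, TRF replicate 1 had 2290 with the others at 2020 to 2058, and for hsp-6 the same array had 2184 with the others at 2915 to 3056. In control arrays, F42A10.7 had 176 in replicate 5 with the others at 304 to 345, C04H5.1 had 44.8 in replicate 1 with the others at 92.0 to 118, Y17G7B.8 had 434 in replicate 3 with the others at 657 to 776, and hsp-6 had 2209 in replicate 4 with the others at 2622 to 2784.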

How the results depend on the processing

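The interaction had 0 called probe sets in 33 of 33 alternatives, with a smallest adjusted p from 0.119 (without H2O2 replicate 4) to 1.0 in limma, and TRF+H2O2+TRF against H2O2 had 0 in 32 of 32. The unadjusted count of the interaction ran from 466 to 651 when single arrays were left out; it was 154 with a filter at the 40th percentile and 58 at the 60th, where 39 were above 0 and 19 below, against 525 unfiltered. With the 9 pairs as a replicate block it was 1200 (421 above 0 and 779 below, smallest adjusted p 0.863) and 751 with the filter at the 40th percentile added, which was chosen after seeing the data; with the 5 numbers as a replicate block it was 819. TRF against control had 1 called probe set in 7 of 32 alternatives and 0 in the other 25: quantile normalization (smallest adjusted p 0.0903), pseudocounts of 16 (0.0508) and 64 (0.0506), no variance trend (0.189), ordinary least squares (0.380), array weights (0.0809), the 5 numbers as a replicate block (0.0507), the later arrays left out (0.305), the methods' t-test (0.519), and 16 of 18 arrays left out singly (0 to 1 called). Of 3796 values of 118 named genes, 20 changed sign, in 6 genes, among them sip-1 (0.0244 after quantile normalization), vit-2 (0.0609 after quantile normalization, 0.0402 after median centring, 0.0183 without the later arrays) and hsp-6 (0.0402 after median centring). With single arrays left out dod-22 ran from -0.670 to 0.0776 (without control replicate 5), sod-3 from -0.00817 to 0.243, vit-2 from -0.0937 to 0.0174, hsp-6 from -0.191 to 0.0348 and gst-4 from -0.141 to 0.370. The causes were not tested.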
